A study of Mus musculus with 6 samples.

Results

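The islands of H3K9me3 described here are those on chromosomes 8, 12, 15 and 18, mouse chromosomes that carry few odorant receptor genes. An island is a stretch of the genome in which reads from a chromatin immunoprecipitation were enriched, as called by the program SICER from windows of 200 bp joined across gaps of up to 600 bp. All islands of these 4 chromosomes with a midpoint at or beyond 8.0 Mb were taken, in coordinates of the mm9 genome build. They numbered 1671 of the 12565 islands in the 4 H3K9me3 libraries, with 214 and 814 in controls 1 and 2, and 388 and 255 in mutants 1 and 2. Overlapping islands of the 4 libraries were joined into 904 regions, of 5840 in the whole genome. Another 65 islands lay before 8.0 Mb on these chromosomes and were left out.

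H3K9me3, trimethylation of lysine 9 on histone H3, marks constitutive heterochromatin, in which HP1 proteins bind and genes and repeats are kept silent. In the olfactory epithelium the mark is known for covering arrays of odorant receptor genes while a neuron settles on the expression of a single receptor allele. Chromosome 18 carries another large array of cell-surface genes, the clustered protocadherins. Each neuron expresses its own small set of protocadherin alpha, beta and gamma isoforms from alternative promoters, which gives the cell a surface identity used in self-recognition of its neurites and in axon wiring.

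The study asked whether lamin B1, a filament protein of the nuclear lamina encoded by Lmnb1, affects where H3K9me3 lies in the olfactory lineage. Controls were Lmnb1+/- cells and mutants Lmnb1-/- cells, both sorted from regenerated olfactory epithelium by their Tomato fluorescence, with about 500000 cells from each mouse. The epithelium had been damaged with 2 injections of 50 mg per kg methimazole at 2 to 3 months of age, and was collected after 4 weeks of recovery. Each replicate was a littermate pair of 1 control and 1 mutant from the same treatment group and of the same age and sex, and each library came from 1 mouse. All mice were of a mixed background and carried a Cre recombinase driven by the keratin 5 promoter, a floxed Lmnb1 allele (1 or both) and a Cre-dependent Tomato reporter. The Cre and floxed Lmnb1 lines had been backcrossed to B6 over several generations. In this tissue keratin 5 is restricted to horizontal basal cells, so that the sorted cells were these stem cells and whatever they had produced, including neurons, progenitors and supporting cells. The tissues were mosaic, and controls lacked 1 copy of Lmnb1 in the same cells. Island lists carry no readout of Lmnb1 transcript and no gene names, so that neither the genotype labels nor the cell types could be checked against them. H3K4me3, a mark of active promoters, was measured in control 1 and mutant 1 alone.

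The 4 chromosomes were poor in receptor genes by name. RefSeq lists 5 Olfr genes on chromosome 8, 3 on chromosome 12, 12 on chromosome 15 and 0 on chromosome 18, which is 1.40% of the 1428 Olfr genes named in its GRCm38 annotation. Chromosomes 2, 7 and 9, which hold large receptor arrays, carry 59.5% of them. Only gene names, counts and their order were taken from GRCm38, since the islands are placed in mm9.

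Lists of 4 values give control 1, control 2, mutant 1 and mutant 2, in that order. Libraries differed in depth. Mean reads per 200 bp window, worked out from the scores of islands of 2 windows, were 1.41 and 2.54 in the control libraries and 1.43 and 2.18 in the mutant libraries. Control 2, the deepest library, also had the most and the shortest islands here, whereas mutant 2 was deeper than control 1 and mutant 1 and had fewer islands than mutant 1. The part of depth in the values below was not tested, except where settings with equal numbers of islands are given.

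H3K9me3 was sparser on these chromosomes than on the other autosomes. Islands covered 5.36 kb per Mb in control 1 and 12.6 in control 2, and 9.0 and 5.29 in mutants 1 and 2. On the other autosomes beyond 8.0 Mb they covered 9.70, 17.4, 13.3 and 8.15 kb per Mb, respectively. All 4 libraries were therefore lower on the receptor-poor chromosomes, by a mean log2 ratio of -0.63 ± 0.17 (SD, n = 4; exact sign-flip permutation test, two-sided, p = 0.125). Against chromosomes 2, 7 and 9 alone, where islands covered 19.1, 27.3, 23.5 and 14.5 kb per Mb, the ratio was -1.45 ± 0.30 (SD, n = 4; exact sign-flip permutation test, two-sided, p = 0.125). With 4 libraries 0.125 is the smallest p this test can give, so that no comparison of this kind could pass 0.05. The plot by chromosome set shows the same order of the 3 sets in every library.

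**Figure D1:**
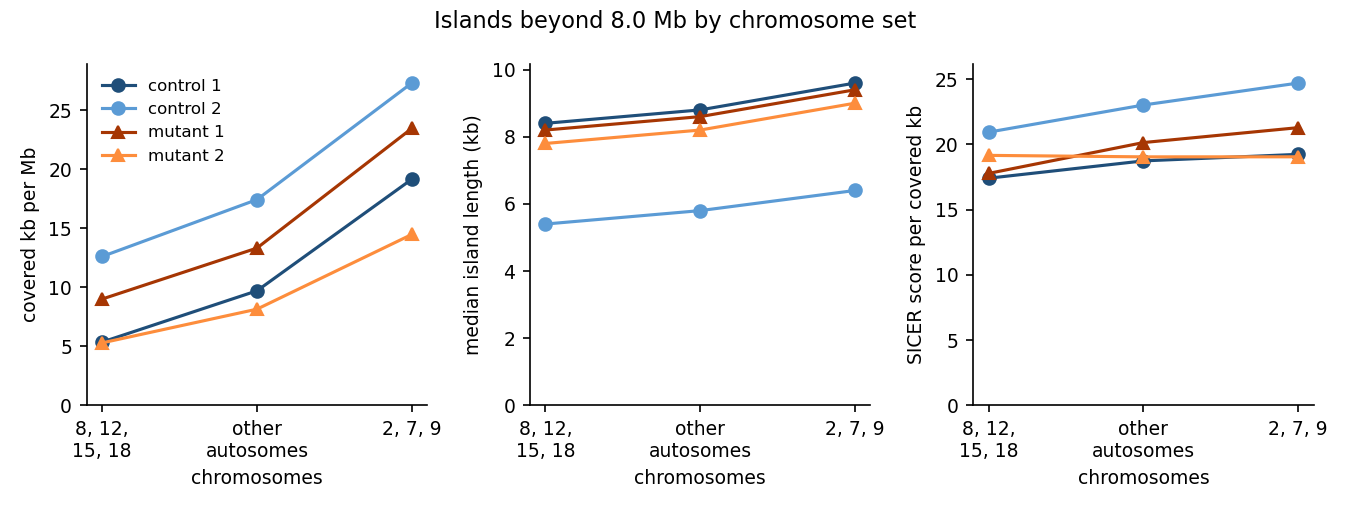
Islands beyond 8.0 Mb on chromosomes 8, 12, 15 and 18, on the other autosomes and on chromosomes 2, 7 and 9, which are also part of the other autosomes. The panels plot covered kb per Mb, median island length in kb and SICER score per covered kb, and each line joins the values of 1 library. Covered length rises from left to right in all 4 libraries, while length and score per kb change little.

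Single islands were close in size to those elsewhere. The median island length was 8.4 kb and 5.4 kb in the controls and 8.2 kb and 7.8 kb in the mutants, against 8.8, 5.8, 8.6 and 8.2 kb on the other autosomes. The mean log2 ratio of these medians was -0.08 ± 0.017 (SD, n = 4; exact sign-flip permutation test, two-sided, p = 0.125), with all 4 libraries lower. With chromosome 12 left out it was -0.044 (exact sign-flip permutation test, two-sided, p = 0.375). It was -0.13, -0.078 and -0.056 with chromosome 8, 15 or 18 left out, respectively. The SICER score sums over the windows of an island the improbability of the reads found there under the average for the library, and was divided here by the covered length. It came to 17.4 per kb in control 1 and 20.9 in control 2, and 17.8 and 19.2 in mutants 1 and 2. Relative to the other autosomes this was a mean log2 ratio of -0.10 ± 0.081 (SD, n = 4; exact sign-flip permutation test, two-sided, p = 0.25), and 3 of 4 libraries were lower. Mutant 2, the library not lower, includes a 1.8 kb region of chromosome 15 with a score of 4457, described below. With chromosome 15 left out the mean was -0.11 (exact sign-flip permutation test, two-sided, p = 0.125). It was -0.010 with chromosome 8 left out, -0.057 with chromosome 12 left out and -0.24 with chromosome 18 left out. The lower score per kb therefore rested mostly on chromosome 8. Islands of 20 kb or more numbered 13, 12, 19 and 7 in the 4 libraries and held 21.8%, 9.19%, 16.3% and 9.45% of the covered length.

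Among the 19 autosomes, ordered by covered kb per Mb averaged over the 4 libraries, chromosome 18 was 10th with 9.73, chromosome 15 was 11th with 8.68, chromosome 8 was 14th with 7.88 and chromosome 12 was 16th with 6.53. Chromosomes 14, 3 and 5 were lower than all 4, at 5.41, 5.34 and 4.21, so that low density was not particular to the 4. Chromosomes 1, 13 and 4, at 8.37, 8.13 and 7.56, lay between chromosomes 15 and 12. Within libraries, chromosome 12 was the lowest of the 4 in all 4 libraries, and chromosome 18 the highest in 3, with chromosome 15 highest in control 2. Chromosome 18 had 7.72, 13.3, 10.1 and 7.78 kb per Mb and chromosome 12 had 3.57, 10.8, 7.31 and 4.43. The protocadherin interval, described below, held 481.4, 531.4, 518.8 and 396.4 kb of the 638.8, 1099, 838.4 and 644 kb covered on chromosome 18. The values of chromosome 18 therefore rested in large part on this interval. Its 10th place and its lead in 3 libraries include the interval, and are not read as traits of the rest of the chromosome. Its place without the interval was not computed. Chromosome 18 also had the highest score per covered kb of the 4 in control 1 (22.3), control 2 (29.2) and mutant 1 (23.9). These values include the protocadherin interval, where score per kb was 24.0, 37.9 and 28.0 in these libraries. In mutant 2 chromosome 15 was higher, at 23.4 against 21.0, a value that includes the 1.8 kb region with a score of 4457.

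Coverage differed widely between places on these chromosomes. The 4 chromosomes were divided into 416 bins of 1 Mb, of which 276 held an island in any library, 73 held one in all 4 libraries and 140 held none. A bin was called dense when islands covered at least 5% of it, averaged over the libraries. There were 11 dense bins, or 2.64 per 100 bins, against 92 of 1912 bins, or 4.81 per 100, on the other autosomes. The dense bins held 54.0% of the covered length in control 1 and 35.7% in control 2, and 45.8% and 44.9% in mutants 1 and 2. These bins were picked by the same coverage, so that a high share was built into their choice. Another 22 bins were covered to between 2% and 5%, and the bin nearest below the dense threshold was chromosome 8 at 119 to 120 Mb, with 4.99%.

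The densest bin by far was chromosome 18 at 37 to 38 Mb, which holds the clustered protocadherin genes. Islands covered 48.1% of it in control 1 and 53.1% in control 2, and 51.9% and 39.6% in mutants 1 and 2. Averaged over libraries (48.2%), it was 7th of 2328 autosomal bins, and the next bin of the receptor-poor chromosomes was 26th. The other 10 dense bins had means from 5.37% to 16.2%.

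These bins lay on chromosomes 8, 12 and 15, in runs of neighbours at 3 places. On chromosome 12 the bin at 64 to 65 Mb was covered to 12.9% and 23.7% in controls 1 and 2, and 17.6% and 10.5% in mutants 1 and 2, and its neighbour at 63 to 64 Mb to 4.96%, 15.7%, 13.02% and 8.08%. On chromosome 15 the bin at 23 to 24 Mb was covered to 8.34%, 16%, 16.5% and 4.72% in the same order, and that at 22 to 23 Mb to 3.12%, 12.5%, 9.52% and 0.90%. On chromosome 8 the bin at 52 to 53 Mb was covered to 3.86%, 18.3%, 10.8% and 7.42%, and that at 53 to 54 Mb to 10.8%, 8.84%, 10.4% and 3.20%. Mutant 2 was the lowest library in 7 of the 11 dense bins and control 1 in the other 4, and the control and mutant ranges overlapped in all 11.

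The remaining named bins stood alone. Chromosome 8 at 18 to 19 Mb was covered to 10.8%, 12.0%, 14.9% and 3.8%, and chromosome 15 at 98 to 99 Mb to 6.86%, 9.96%, 10.9% and 8.48%. Chromosome 8 at 71 to 72 Mb was covered to 7.0%, 9.16%, 9.38% and 6.04%. This last bin differed from most others in its signal per length, with 22.9, 40.1, 26.7 and 26.8 score per kb. By comparison, the dense bins other than it, the protocadherin bin and chromosome 15 at 98 to 99 Mb had between 10.1 and 16.5 score per kb in every library.

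**Figure D2:**
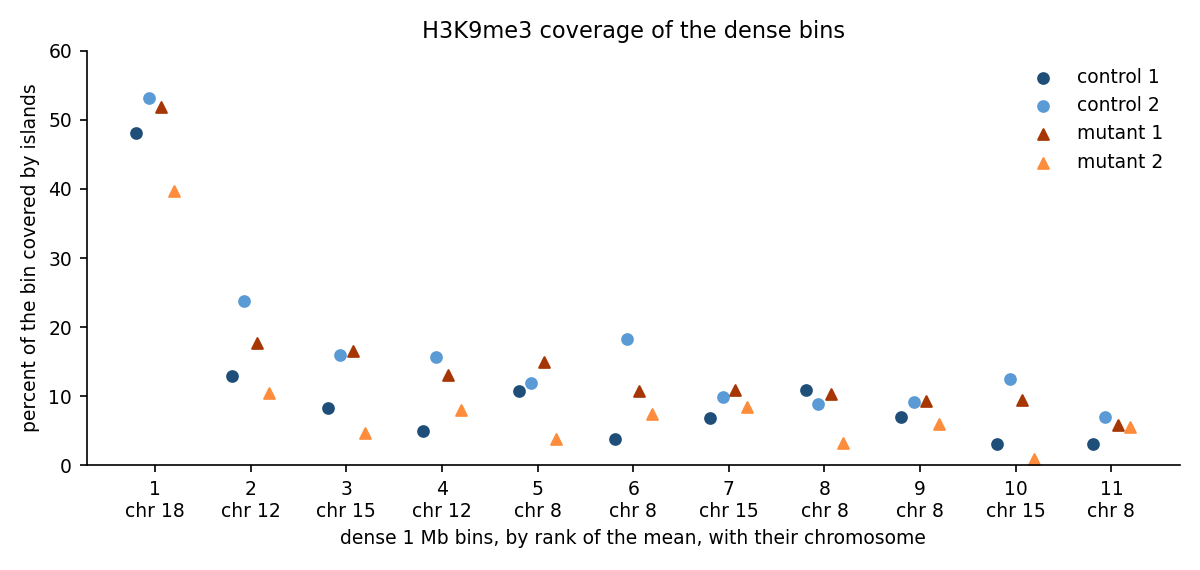
Percent of each of the 11 dense 1 Mb bins covered by H3K9me3 islands, ordered by the mean over 4 libraries, with circles for Lmnb1+/- controls and triangles for Lmnb1-/- mutants. The protocadherin bin at the left lies between 39.6% and 53.1%, and no library exceeds 23.7% in any other bin.

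The protocadherin cluster was examined over chr18:36800001-38000000. By gene order in RefSeq the cluster starts with 14 genes named Pcdha, followed by 22 Pcdhb and 22 Pcdhg genes, with Slc25a2 and Taf7 between them. It is preceded by housekeeping genes such as Ndufa2, a subunit of respiratory complex I, and the histidyl-tRNA synthetases Hars and Hars2, and is followed by Diaph1, an actin-nucleating formin, and Hdac3, a histone deacetylase. Gene positions in mm9 were not used here, so that no island is assigned to a single gene.

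Islands covered 40.1% of these 1.2 Mb in control 1 and 44.3% in control 2, and 43.2% and 33.0% in mutants 1 and 2. Although small, the interval held 21.7%, 10.2%, 13.9% and 18.1% of all length covered on the 4 chromosomes, and 29.9%, 18.4%, 21.9% and 21.3% of their summed score. Score per length was also higher there, with 24.0 score per kb in control 1 and 37.9 in control 2, and 28.0 and 22.5 in mutants 1 and 2, against 15.6, 19.01, 16.1 and 18.4 in all other islands of these chromosomes. The log2 ratio of the cluster to the other islands was 0.63, 0.99, 0.80 and 0.29, above 0 in all 4 libraries and smallest in mutant 2, with a mean of 0.68 ± 0.30 (SD, n = 4; exact sign-flip permutation test, two-sided, p = 0.125). The other islands include the 1.8 kb region of chromosome 15 described below, which scored 4457 in mutant 2. Without the cluster, the score per kb of the 4 chromosomes relative to the other autosomes was -0.23 on the log2 scale, and the covered kb per Mb -0.88. More cells with the mark and more mark in each cell cannot be told apart in these sorted pools. Median island length in the cluster was 11.1, 7.8, 11.4 and 10 kb, against 8.3, 5.4, 8.2 and 7.6 kb elsewhere on these chromosomes.

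The islands of the cluster formed 24 joined regions of 571 kb in all, from 37025801 to 37954200. Of these, 14 had an island in all 4 libraries, 2 in 3 libraries, 2 in 2 libraries and 6 in 1 library. The median gap between regions, those of 1 library included, was 7.2 kb, and the mark ran as long blocks with mostly short breaks. Between the regions ending at 37699600 and starting at 37796801, only control 2 had islands. The block as a whole stood apart from its surroundings. No island was called for 225.8 kb at the start of the interval, the nearest other regions of these chromosomes lay 1718.4 kb before and 1712.6 kb after the cluster, and within it the widest gap, chr18:37265801-37408800, was 143 kb.

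**Figure D3:**
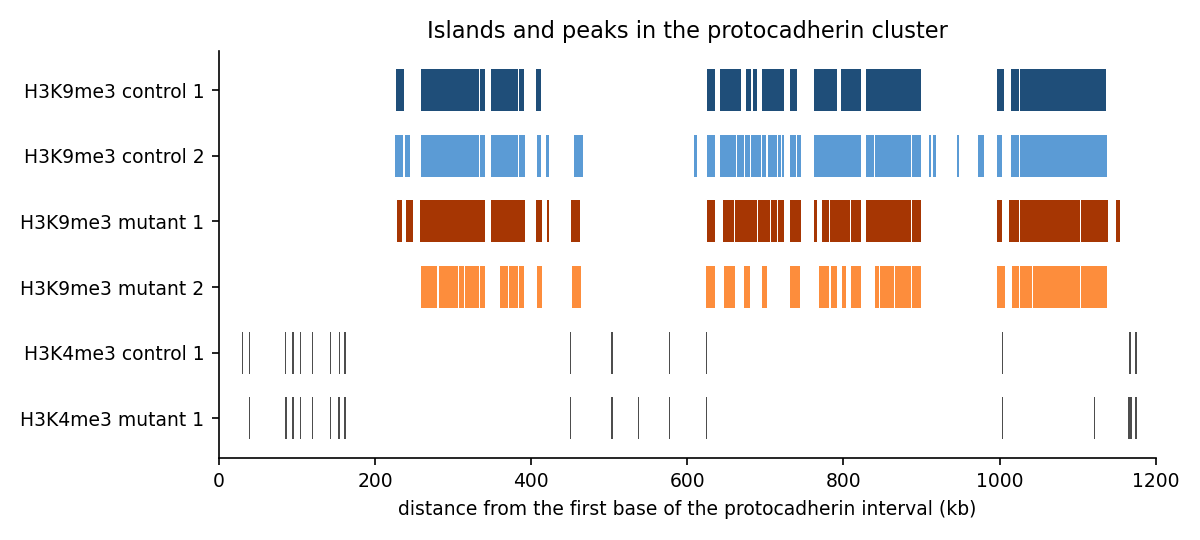
H3K9me3 islands of the 4 libraries (coloured bars) and H3K4me3 peaks of control 1 and mutant 1 (grey bars) along the protocadherin interval, by distance in kb from its first base. Islands start beyond 225.8 kb. A gap of 143 kb has no island in any library, and a second, between 37699600 and 37796801, has islands of control 2 alone. Most H3K4me3 peaks lie before the first island, in the 143 kb gap or after the last long block.

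Coverage in steps of 100 kb showed a similar profile in the 4 libraries. From 37600001 to 37700000 islands covered 92.2% and 91.6% in the control libraries and 91.4% and 72.0% in the mutant libraries, and from 37800001 to 37900000 they covered 90.2%, 87.4%, 89.6% and 87.6%. Between these steps, from 37700001 to 37800000, coverage was 3.0%, 20%, 3.20% and 3.20%. The steps from 36800001 to 37000000 and from 37300001 to 37400000 had no island in any library. Mutant 2 fell furthest below the others from 37500001 to 37600000, with 38% against 66.8%, 70.8% and 68.2%.

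When joined regions were ordered by their lowest score over the 4 libraries, 4 of the first 5 lay in the cluster. The longest was chr18:37825801-37938600, a block of 112.8 kb covered to 98.1%, 99.1%, 99.3% and 97.0%, with scores of 3503 and 6149 in the controls and 4185 and 2936 in the mutants. It was a single island in both controls and was broken into 2 islands in mutant 1 and 4 in mutant 2. The block at chr18:37628601-37687200 (58.6 kb) scored 1447, 2372, 1790 and 1197. In each of these blocks control 2 was highest, mutant 1 second and mutant 2 lowest, so that the genotypes overlapped.

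The same order held at chr18:37561601-37622600 (61.0 kb), with 1152, 1984, 1225 and 856, and at chr18:37080801-37141200 (60.4 kb), with 1316, 1845, 1460 and 914. The second longest region of the cluster, chr18:37441801-37523800 (82.0 kb), scored 1150, 2063, 1479 and 455. Mutant 2 had islands over 35.4% of that region, against 80.5%, 88.5% and 89.5% in the other libraries, and mutant 1 scored between the controls. Of the 10 regions of the cluster missing from at least 1 library, 6 were seen in a single library, 5 of them in control 2 and 1 (chr18:37948801-37954200) in mutant 1.

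Over the interval as a whole, H3K4me3 peaks, called by the program MACS, lay mostly outside the blocks. This rested on peaks that flanked the H3K9me3 regions. Each of the H3K4me3 libraries had 19 peaks in the interval, of which 9 lay before the first H3K9me3 region, on the side of the preceding genes. In control 1, 14 peaks did not touch an H3K9me3 island of the same mouse, 1 lay across an island edge and 4 lay inside an island. In mutant 1 the numbers were 15, 2 and 2. Between the first and last regions, the outside peaks of control 1 were those starting at 37249104, 37302695 and 37376191. Those of mutant 1 started at 37249114, 37302628, 37337375 and 37376430, so that peaks there were not mostly outside islands. The MACS score, which rises as the probability of a peak by chance falls, had a median of 781 for the peaks outside islands in control 1 and 1109 in mutant 1.

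Peaks inside the blocks were weak with 1 exception. In control 1 they scored 61.9, 62.3 and 143, besides 1 of 1589 at chr18:37802730-37804729. In mutant 1 they scored 55.0 and 98.5, and the peak matching the exception, at chr18:37802871-37804732 with a score of 2127, reached across the edge of its island. The peak at the edge of the region chr18:37424201-37435800 was called in both mice, with 1312 in control 1 and 1519 in mutant 1. The 143 kb gap in H3K9me3 held 2 peaks in control 1 (753 and 809) and 3 in mutant 1 (1216, 96.8 and 983). With 1 H3K4me3 library per genotype these values have no replicate check, and the cells sorted were a mixture, so that both marks need not have been in the same cells.

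Over the 4 chromosomes, 10 of 214 islands of control 1 shared at least 1 bp with an H3K4me3 peak of the same mouse, which is 4.67% (95% Wilson interval 2.56 to 8.39). In mutant 1 this held for 15 of 388 islands, or 3.87% (95% Wilson interval 2.36 to 6.28). On the other autosomes the shares were 2.80% and 4.04%, within these intervals. The intervals cover counting error only.

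Beyond the cluster, the region first by its lowest score over the 4 libraries was chr15:74915801-74917600, of 1.8 kb only. It scored 2407 and 2615 in controls 1 and 2, and 3187 and 4457 in mutants 1 and 2, which is 1337 to 2476 per kb. Both mutants were above both controls. In both mice with H3K4me3 data the whole region lay under an H3K4me3 peak scored 3100. The score per kb of all islands of these chromosomes was 17.4 to 20.9. No input library was used here, and whether the reads at this region reflect H3K9me3 was not tested.

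By the same measure the strongest region of chromosome 8 was chr8:71736801-71760800, with 526, 1131, 766 and 692, and that of chromosome 12 was chr12:20232001-20241600, with 506, 983, 549 and 478. On chromosomes 15 and 18 they were the 1.8 kb region and the 112.8 kb block above. The longest regions called in all 4 libraries on the first 3 chromosomes were chr8:18164201-18193800 (29.6 kb), chr12:64108001-64136400 (28.4 kb) and chr15:98078001-98109400 (31.4 kb), each far shorter than the 112.8 kb block on chromosome 18. The first scored 242, 452, 383 and 95.9, the second 331, 523, 487 and 298, and the third 560, 695, 566 and 357. Mutant 2 was lowest in each of these 3, and control 2 was highest.

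Most regions were seen in 1 library. Of the 904 joined regions, 536 (59.3%) had an island in 1 library, 158 in 2, 112 in 3 and 98 in all 4. The share in all 4 was 10.8% (95% Wilson interval 8.98 to 13.04), against 18.3% (873 of 4763 regions) on the other autosomes and 28.9% (376 of 1302) on chromosomes 2, 7 and 9. The interval takes regions as independent and does not cover differences between libraries. With equal numbers of islands the shares rose to 18.4% (75 of 407 regions), 30.7% (767 of 2500) and 42.2% (347 of 822), and with islands of at least the median score they were 14.9%, 26.4% and 36.5%, in the same order. Of the regions in 1 library, 426 were those of control 2, 69 of mutant 1, 31 of mutant 2 and 10 of control 1. By chromosome, all 4 libraries had an island in 27 of 155 regions on chromosome 18 (17.4%), 32 of 254 on chromosome 8 (12.6%), 23 of 256 on chromosome 15 (8.98%) and 16 of 239 on chromosome 12 (6.69%). Of the 27 on chromosome 18, 14 lay in the protocadherin cluster.

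Regions found in all 4 libraries were the longest and had the highest score per kb. Median length was 5.4 kb for regions in 1 library, 7.6 kb in 2, 9.8 kb in 3 and 12.3 kb in all 4, and a joined region can only lengthen as islands are added to it. Score per kb of a region was taken as its score summed over libraries, divided by its covered length summed over libraries. The median was 15.3, 15.2, 16.3 and 19.96, but 426 of the 536 regions in 1 library came from control 2, the library with the highest score per kb. Within control 2 the medians were 16.7, 17.7, 19.5 and 25.1 for regions in 1, 2, 3 and 4 libraries, and within mutant 1 they were 10.8, 14.5, 14.98 and 18.99. They were 9.37, 10.9, 13.1 and 15.6 within control 1 and 11.9, 14.3, 14.8 and 17.6 within mutant 2. Regions in all 4 were thus the strongest per length in each library. The regions in all 4 held 60.4% of the covered length of control 1 and 25.7% of control 2, and 38.6% and 51.8% of mutants 1 and 2. These shares were lowest in the library with the most islands. Of the length covered in control 1, 74.1% was also covered in control 2 and 72.2% in mutant 1, and of that in mutant 2, 70.2% was also covered in control 2 and 65.2% in mutant 1.

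**Figure D4:**
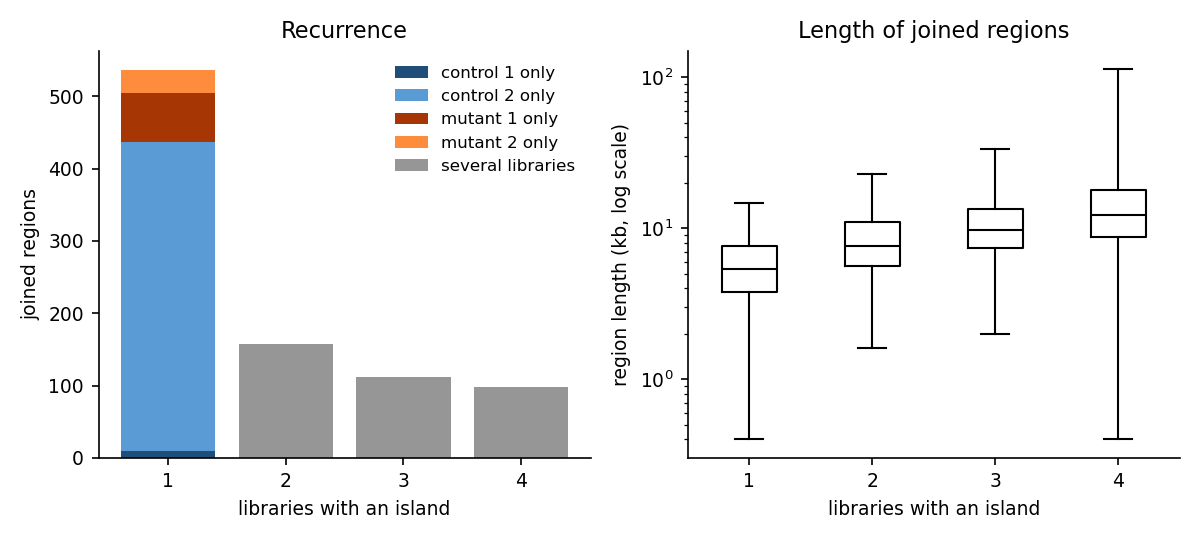
Left, number of joined regions by the number of libraries with an island, with regions of a single library coloured by that library. Right, length of the joined regions in kb on a log scale, where boxes show quartiles, lines the median and whiskers the lowest and highest values. Most regions in 1 library belong to control 2, and median length rises from 5.4 to 12.3 kb.

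Isolated islands were common. A neighbouring island lay within 10 kb for 26.2% of islands in control 1 and 25.3% in control 2, and 28.6% and 23.1% in mutants 1 and 2. The nearest neighbour was more than 1 Mb away for 24.8%, 4.67%, 14.4% and 20.8%, a share that was again lowest in control 2.

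No difference between genotypes passed a test. Islands numbered 514 ± 424 (SD, n = 2) in the controls and 321.5 ± 94.0 (SD, n = 2) in the mutants, for a log2 ratio of -0.68 (two-sided exact permutation p = 1). The littermate pairs went in opposite directions, at 0.86 and -1.67 on the log2 scale. Covered length was 3.72 ± 2.12 Mb (SD, n = 2) and 2.96 ± 1.09 Mb (SD, n = 2), a log2 ratio of -0.33 (two-sided exact permutation p = 0.667). The ranges of the genotypes overlapped in both measures. With the same number of islands taken from each library both ratios changed sign, to 0.22 and 0.17, and without control 2 they were 0.59 and 0.42. The smallest p of this permutation test with 2 libraries against 2 is 0.333.

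The make-up of the islands was also within the spread of the libraries. Score per kb was 19.2 ± 2.50 (SD, n = 2) in the controls and 18.5 ± 0.976 (SD, n = 2) in the mutants, for a log2 ratio of -0.05 (two-sided exact permutation p = 1). Median island length was 6.9 ± 2.12 kb (SD, n = 2) and 8.0 ± 0.283 kb (SD, n = 2), a log2 ratio of 0.21 (two-sided exact permutation p = 1). These chromosomes held 12.2% ± 2.03 (SD, n = 2) of the autosomal covered length in the controls and 12.6% ± 0.313 (SD, n = 2) in the mutants. The dense bins held 44.8% ± 12.9 (SD, n = 2) of the covered length in the controls and 45.3% ± 0.610 (SD, n = 2) in the mutants. The protocadherin interval was covered to 42.2% ± 2.95 (SD, n = 2) and 38.1% ± 7.21 (SD, n = 2), a difference of -4.07 percentage points (two-sided exact permutation p = 0.667). The pairs differed by 3.12 and -11.25 points, so that the lower mean of the mutants rested on mutant 2, without which the difference was 1.03 points.

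Scores of single regions were compared with limma over the 2801 joined regions of the genome called in at least 2 libraries, of which 368 lay on the receptor-poor chromosomes. At an adjusted p under 0.05 (limma, Benjamini-Hochberg) 0 of the 368 were called, against a background of 0.0357% of all regions higher and 0% lower in mutants. At an unadjusted p under 0.05, 10 (2.72%) were higher and 18 (4.89%) lower in mutants, beside 1.89% and 3.93% of all regions. The median log2 difference of the 368 was 0.15 against 0.08 over all regions, on the scale of log2(score + 64.7), 64.7 being the smallest island score. All 18 lower regions had islands in both controls and in neither mutant. These counts rested on single libraries, with 10 higher and 0 lower without control 1, 18 and 1 without control 2, 25 and 43 without mutant 1 and 2 and 31 without mutant 2. They were 11 and 11 with the replicate block, 16 and 13 with equal numbers of islands and 9 and 0 with a pseudocount 10 times as large, so that no excess in either direction is read from them. The median turned to -0.10 without control 1, -0.01 without control 2, -0.04 with no shift between libraries and -0.33 with regions of at least 1 library.

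**Figure D5:**
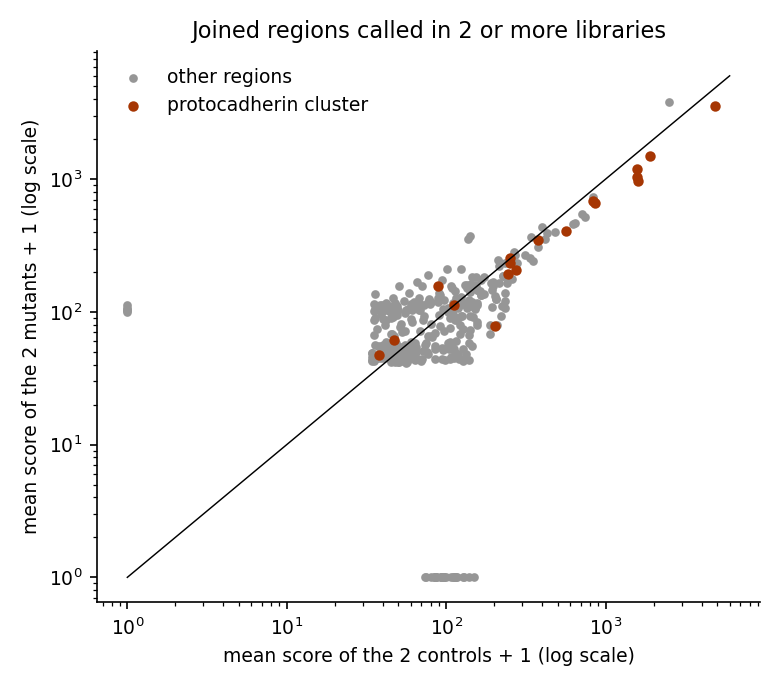
Mean SICER score + 1 of the 2 mutants against that of the 2 controls for the 368 joined regions called in at least 2 libraries, on log axes, with the 18 regions of the protocadherin cluster in red and a line at equal values. Points at the left edge (5) had no island in controls, points at the lower edge (28) had none in mutants, and the strong protocadherin regions lie below but near the line. Scores are not scaled between libraries, and control 2, the deepest library, was highest in each of the long protocadherin blocks named above.

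Regions with islands in both controls and in no mutant numbered 28 of the 368 (7.61%), and 5 (1.36%) had islands in both mutants and in no control. Over all 2801 regions these shares were 6.68% and 1.18%, so that the receptor-poor chromosomes were near the background. No region of the protocadherin cluster was among either group. At chr18:37825801-37938600 the fitted log2 difference was -0.21 ± 0.43 (SE), and at chr15:74915801-74917600, where both mutants scored higher, it was 0.76 ± 0.51 (SE), with an adjusted p of 0.999 (limma, Benjamini-Hochberg) for each. The other 3 of the 5 strongest regions had log2 differences from -0.35 to -0.14.

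Bins of 1 Mb gave the same count. Over 1398 bins of the genome with at least 1000 covered bp on average, the percent of each library's covered length that fell in the bin was compared with limma, and 0 of the 248 bins of these chromosomes passed an adjusted p under 0.05 (Benjamini-Hochberg), as did 0% of all bins in either direction. At an unadjusted p under 0.05, 0 were higher and 9 (3.63%) lower in mutants, against 0% and 3.29% of all bins. The 9 had islands in both controls and in no mutant. In the 11 dense bins the fitted log2 differences lay between -0.77 and 0.61. Leaving out control 1 raised the calls to 492 bins of the genome (32.2%) and 91 (34.7%) of these chromosomes, 88 of the latter lower in mutants, in a fit with the deepest library as the only control.

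Nearest to the limit of 8.0 Mb, the first islands inside it were at 8.15 Mb on chromosome 8 (score 70.0), 8.10 Mb on chromosome 12 (83.6), 8.46 Mb on chromosome 15 (75.5) and 9.09 Mb on chromosome 18 (96.2), all in control 2. The last islands outside were at 7.84, 6.50, 6.43 and 7.98 Mb, with scores of 64.8, 118.7, 73.9 and 94.7, from control 2 on chromosomes 8 and 15 and from mutant 1 on chromosomes 12 and 18.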

How the data were processed

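H3K9me3 FARP-ChIP-seq, which maps chromatin marks in small samples, was performed by the authors on 2 control and 2 mutant mice, and H3K4me3 on replicate 1 of each. The authors mapped reads to mm9 with bowtie (unique alignments, at most 2 mismatches) and deposited, for each library, SICER island scores (E-value 0.01) and, for H3K4me3, MACS peak scores (p 1.0e-5). No input library was used here. The authors also compared read counts in merged peaks, which were not used here. Scores were not scaled between libraries in the deposited files.

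Island starts were converted to 1-based coordinates. Region scores (an island in 2 or more libraries) were fitted with limma 3.58.1 in R 4.3.3 on log2(score + 64.7), with libraries shifted to a common median over regions called in all 4, and 1 Mb bins on log2(percent + 0.001), with Benjamini-Hochberg adjustment over the genome. The region scale understates changes from low scores. On the bin scale, a bin with no island in 1 genotype can give a large difference. In the 9 lower bins the log2 differences ran from -5.51 to -3.03. Values per library were compared by exact permutation tests in Python 3.11.15 with scipy 1.17.1. The scripts were checked on simulated data. The replicates are separate mice. Same-numbered libraries are littermates of the same treatment group, and the correlation of their deviations was -0.02 over regions and -0.01 over bins. Reads per window were taken as the average at which all 5, 10, 11 and 10 islands of 2 windows in the 4 libraries gave whole reads, to within 1e-05.

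Named were the protocadherin regions, the 5 regions whose lowest score of the 4 was highest, the longest and strongest region of each chromosome among those in all 4 libraries, the 10 densest bins and islands nearest the 8.0 Mb limit. The members, lists and regions were chosen with earlier results of these data known. Some features end past the GRCm38 chromosome ends, so that GRCm38 positions were not combined with islands, and no sequence was read.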

Additional observations from a re-analysis of the deposited data

How the results depend on the processing

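The tests with 2 mice per genotype cannot reach 0.05 for a single value, and island calls depend on the depth of each library. When each library contributed its 1964 strongest islands, the log2 ratio of mutant over control was 0.22 for islands and 0.17 for covered length, the dense-bin share differed by -5.01 points, 18.4% of regions were in all 4 libraries, 53 of 977 bins of the genome (5.42%) and 5 of 168 of these chromosomes (2.98%) passed limma, and 0 regions did. With islands of at least the median score, the dense-bin share differed by -4.10 points, 14.9% of regions were in all 4 libraries and 0 regions passed. The dense-bin difference was -0.22 without chromosome 8, and the log2 ratio of score per kb was 0.011 without chromosome 18. The single region of the genome that passed limma lay outside these chromosomes. It became 0 with a pseudocount 10 times as large, with no shift, or with regions of all 4 libraries, and a pseudocount of 1 gave 199 calls of 2801 (7.1%), 31 of them among the 368 here (8.42%, 27 lower in mutants), and 0 with the replicate block (added after seeing the data). The cause of these changes was not tested.

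Leaving out each library in turn gave log2 ratios from -1.34 to 0.59 for islands, -0.82 to 0.42 for covered length, -0.070 to 0.57 for median length and -0.18 to 0.085 for score per kb. Differences ran from -1.0 to 1.87 points for the autosomal share, -9.40 to 7.39 for the dense-bin share and -9.17 to 1.03 for protocadherin coverage. Calls ran from 0 to 1 for regions, 0 to 492 for all bins and 0 to 91 for bins here, the higher bin counts without control 1. The density of these chromosomes stayed below that of the other autosomes, at -0.68 to -0.55, and below chromosomes 2, 7 and 9, at -1.56 to -1.32. With the replicate block, that is within littermate pairs, the log2 ratios were -0.41 for islands, -0.25 for covered length, 0.25 for median length and -0.05 for score per kb, and the calls were 1 region and 0 bins of the genome. At the main pseudocounts the block left these numbers of calls unchanged. At a pseudocount of 1 it took the region calls from 199 to 0. Values without the protocadherin cluster, a setting added after seeing the data, kept their direction. Since the exact tests cannot pass 0.05 at this size, staying above it says nothing about stability.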

Other observations

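Some short islands of these chromosomes lay under H3K4me3 peaks in both mice of replicate 1. Chosen after their values were seen, the 0.4 kb island chr18:40467601-40468000 scored 203 in control 1 and 255 in mutant 1 and lay wholly under a peak scored 563 and 548, respectively. On chromosome 12 an island starting at 75903401 in control 1 (2.2 kb, score 360) shared 58.1% of its length with a peak scored 525, and the island over the same place in mutant 1 (4.2 kb, score 419) shared 33.6% with a peak scored 485. With 1 H3K4me3 library per genotype, the peak scores and the overlaps have no replicate check.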
